A study of Mus musculus with 1 sample.

Results

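Among the cells of mouse tumors grown from MC38, a murine colon adenocarcinoma line, 74 of 4640 filtered cells met a rule for monocytes with high Ly6c2, which is 1.59% (exact Clopper-Pearson 95% interval 1.25 to 2.0%). The members were chosen by measured values: a cell needed at least 2 unique molecular identifiers (UMIs, each standing for 1 captured RNA molecule) of Ly6c2 and at least 5 UMIs of Tyrobp and Fcer1g together per 10000 UMIs of the cell. It also needed more UMIs of Ly6c2, Plac8 and Chil3 together than of C1qa, C1qb and C1qc together, fewer than 1 UMI of the tumor cell genes Rhox5 and Shisal2b per 10000, and at most 1 UMI of Cd3d, Cd3e and Cd3g. The levels of these 13 genes in the members are therefore a description and not a finding. The comparison group was the 2056 macrophages of the same library, cells with at least 10 C1q UMIs per 10000 and more C1q than Ly6c2, Plac8 and Chil3 UMIs.

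The library was made from 5 subcutaneous MC38 tumors that were mixed in equal proportions, and it was read as UMI counts per gene with the 10x 3' v3.1 chemistry. According to the labels and the methods of the study, the hosts were female C57BL/6J mice of 4 to 6 weeks, and the sample is labelled WT. No shRNA is named there, so the library was taken as the pool of control tumors, whose cells carried a non-targeting shRNA (shNTC) from a lentiviral vector after puromycin selection, and the tumors with knockdown of Atp6v0a1 were not analysed here. GEO lists the cell type as epithelial cells, although the library held tumor cells, macrophages and lymphocytes side by side. With 1 library and no link from a cell to its mouse, no test between groups was possible, and every interval below covers counting error only.

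Ly6C-high monocytes are made in bone marrow, leave it through the chemokine receptor CCR2, and enter inflamed tissue and tumors from the blood. There they can turn into macrophages or into cells that resemble dendritic cells, losing Ly6C and gaining genes such as those of complement C1q and MHC class II on the way. Ly6c2 encodes a small surface protein anchored by a lipid, Plac8 a cysteine-rich protein of myeloid cells and Chil3 a secreted chitinase-like protein (Ym1) of immature monocytes. In the genome of the files' build, GRCm38, Ly6c2 lies at chr15:75108158-75111970 on the minus strand and Ccr2 at chr9:124101950-124113557 on the plus strand, as given by the GENCODE annotation.

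Of 5307 called cells, 667 were removed for more than 20% mitochondrial UMIs and none for fewer than 200 genes. At least 2 Ly6c2 UMIs were found in 290 of the 4640 cells that remained, and 258 of these reached the Tyrobp and Fcer1g minimum. Of the conditions after these, that on C1q removed 142 cells and left 116. The limit on Rhox5 and Shisal2b removed 38 more and the limit on Cd3 genes the last 4. There were 3.60 members per 100 macrophages.

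No gap set the members apart at the C1q condition. The excess of Ly6c2, Plac8 and Chil3 over C1q UMIs was as small as 1 UMI among members, and 4 members had an excess of at most 2. On the other side, 97 cells were outside by the C1q condition alone, of which 3 had equal UMIs and 5 were at most 2 UMIs short. The lowest Tyrobp and Fcer1g level of a member was 11.5 per 10000, and the 3 cells outside by this limit alone reached 3.79 at most. The highest Rhox5 and Shisal2b level of a member was 0.640 per 10000, 71 members had none of their UMIs, and the 38 cells outside by this limit alone began at 1.11 with a median of 3.57. Exactly 2 Ly6c2 UMIs were found in 8 members, and 16 cells met all conditions except that they had 1 Ly6c2 UMI.

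**Figure D1:**
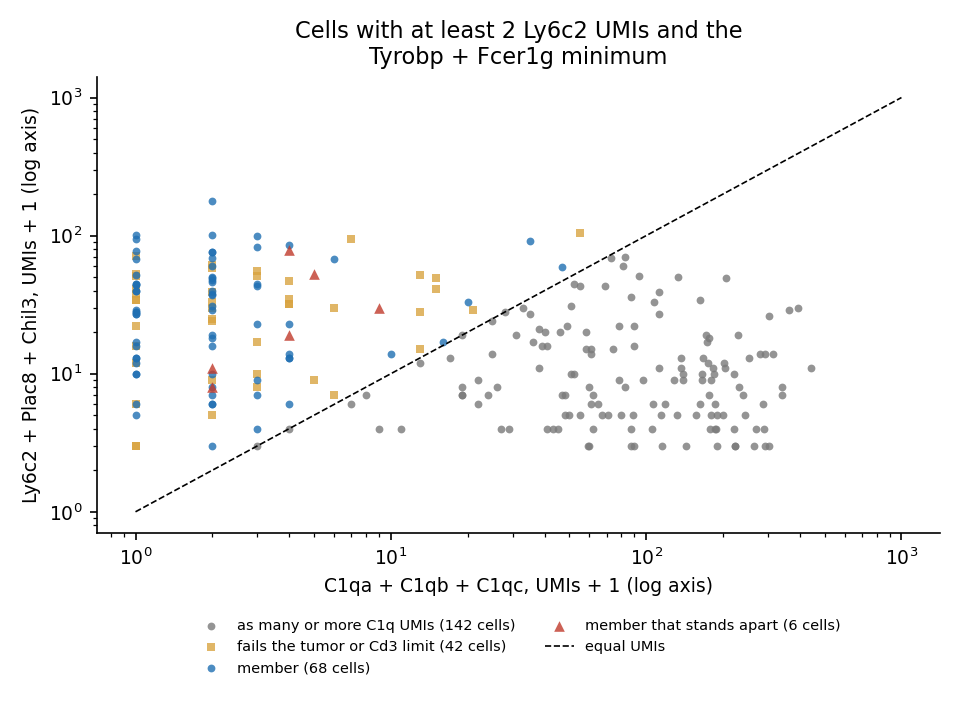
The plot sets the UMIs of Ly6c2, Plac8 and Chil3 against those of the C1q genes, each plus 1 on log axes, for the 258 cells with at least 2 Ly6c2 UMIs and the Tyrobp and Fcer1g minimum; points are cells and the dashed line marks equal UMIs. Members (68 blue, and 6 red that stand apart) lie above the line and near the left edge, while the 142 cells with as many or more C1q UMIs spread over the right side without a gap at the line.

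The members were shallow. They held 423926 UMIs in all, with 729 in the lowest cell, a median of 4251 and 33775 in the highest, and a median of 1554.5 genes per cell. Macrophages had a median of 7379.5 UMIs, the 97 cells with Ly6c2 and more C1q UMIs 10027, and the 2010 tumor cells (Rhox5 and Shisal2b of at least 1 per 10000 with Tyrobp and Fcer1g under 5) 37620. At the depth of all members together a count of 3 corresponds to 7.08 UMIs per 1000000 (CPM), the limit that a count of 0 allows.

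The members were not all alike, and 6 of the 74 went against the label. All 6 had Lyz2, the lysozyme gene of monocytes and macrophages, below 1 UMI per 10000. Their Lyz2 counts were 1 UMI in 1 cell and 0 in the other 5, against 1 to 318 UMIs in each of the 68 others. All 6 also had 0 Chil3 UMIs, and they were deep cells that held 24.9% of all UMIs of the members. They were set apart after their values were seen. Values below are over all 74 members unless said otherwise, and values without the 6 cells are added for the genes and lists described whose side of 2-fold or count changed. A gene with no UMI in the 6 cells has a ratio 1.33 times as high without them, since the total of UMIs is smaller.

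In 2 of the 6, with 33775 and 18390 UMIs, genes of natural killer cells were found beside Ly6c2 (42 and 16 UMIs), Plac8 (36 and 2) and Ccr2 (5 in each), while Csf1r was at 0. Ncr1, which encodes the activating receptor NKp46, had 5 and 14 UMIs in them and 0 in all other members. Nkg7, a protein of cytotoxic granules, had 36 and 16 UMIs, and the pore-forming protein gene Prf1 had 30 and 6, again with 0 in all other members. These 2 cells carried 4093 of the 4098 UMIs of granzymes B to G in the 74 members, and 3943 of them came from 1 cell. Cd3e was at 0 in both.

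The other 4 cells, with 7292 to 19131 UMIs, had a different composition. Cst3, the cystatin C gene that is very high in dendritic cells, was at 53.5 to 404 UMIs per 10000, and 3 of the 4 were above the highest of the 68 others, 150 per 10000. Cd74, the invariant chain of MHC class II, was at 94.3 to 138 per 10000, inside the range of the 68, 0 to 274. Lyz2 was at 0 in all 4 and Csf1r, the receptor of the macrophage growth factor, had UMIs in 1 of them. Genes of the cell cycle list made up 70.6 to 106 UMIs per 10000 in each of the 4, against 0 to 52.7 in the 68 others. One of them carried all 8 Xcr1 UMIs and all but 1 of the 8 Flt3 UMIs of the members, both genes of dendritic cells. No cell type was assigned to either set.

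**Figure D2:**
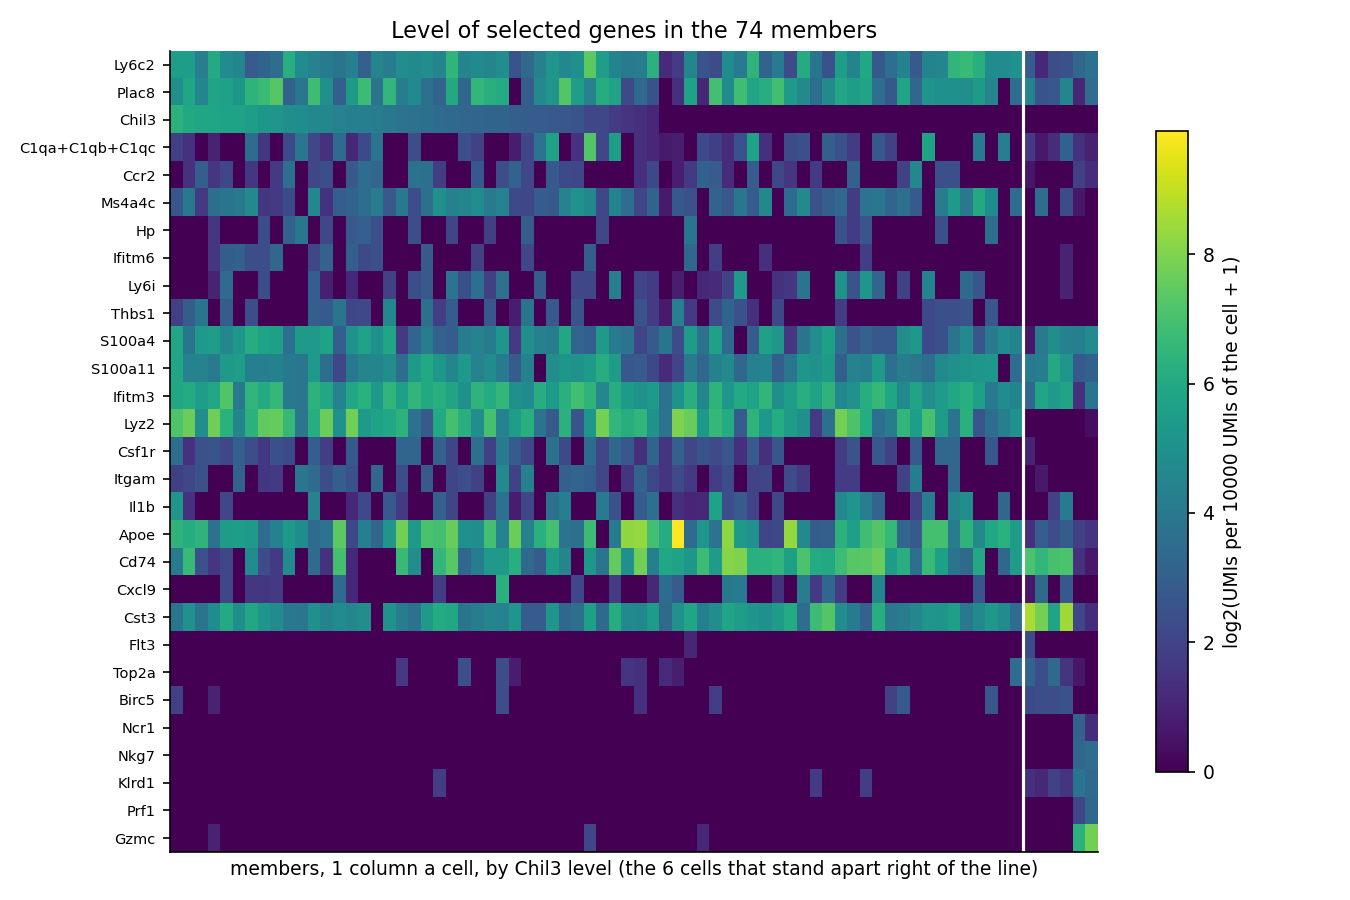
The heat map shows selected genes in the 74 members, 1 column a cell, as log2(UMIs per 10000 UMIs of the cell + 1), with the 68 cells ordered by Chil3 level and the 6 cells that stand apart right of the white line. Lyz2 is seen in all 68 cells on the left and is near 0 on the right, where Cst3 is above its highest level in the 68 in 3 cells, and Ncr1, Nkg7, Prf1 and Gzmc are seen in the last 2.

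Defining markers of neutrophils and B cells were at or near 0 in the members. Of the 14 genes on the neutrophil list, S100a9, Retnlg, Cxcr2, Ly6g, Camp and Ngp were at 0, and S100a8 had 8 UMIs, 5 of them in 1 cell. Cxcl2, which macrophages make too, had 29 UMIs, the receptor gene Csf3r 10 and Mmp8 6. The B cell genes Cd79a and Ms4a1 were at 0, but Ighm, the heavy chain of IgM, had 38 UMIs, 19 of them in the 6 cells, at 89.6 against 47.0 CPM in macrophages, and Igkc had 2. A count of 0 in 74 cells allows a share of cells with a UMI of up to 4.05%. The collagen gene Col3a1, which is high in part of the tumor cells, had 71 UMIs in the members, 167 CPM (185 without the 6 cells) against 338 in macrophages and 1146 in tumor cells. The macrophage rule set no limit on tumor genes, and 645 of the 2056 macrophages had Rhox5 and Shisal2b of at least 1 per 10000, 75 of them meeting the rule for tumor cells too. The 1289 macrophages that kept to the same limits on tumor, Cd3, Tyrobp and Fcer1g genes as the members had Col3a1 at 142 CPM, so that the ratio for this gene turned from 0.495 (0.386 to 0.626), or 0.548 (0.417 to 0.708) without the 6 cells, to 1.18 (0.915 to 1.49).

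The UMIs of Ly6c2 were not confined to the members. Of the 2924 Ly6c2 UMIs in the filtered library, the members held 31.5%, macrophages 32.2% in 255 of 2056 cells, and tumor cells 6.91% in 79 of 2010 cells. The 97 cells with Ly6c2 and more C1q, of which 94 were also macrophages by the rule, held 20.2%. By level, Ly6c2 was at 2175 CPM in the members, 609 in these 97 cells, 51.3 in macrophages and 2.47 in tumor cells. Over members it ranged from 1.22 to 170 UMIs per 10000, with a median of 21.2. Plac8 was detected in 71 members and Chil3 in 39, so that Chil3 was the least uniform of the 3 genes. The neighbouring paralog Ly6c1 is nearly identical to Ly6c2, and its level of 68.4 CPM in members, 94.2 in macrophages and 506 in tumor cells is uncertain, since reads that match both genes cannot be assigned.

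Ccr2, the receptor by which monocytes leave the marrow, was the marker that the rule did not use. It had UMIs in 41 of 74 members, 55.4% (43.4 to 67.0%), with 0 UMIs per 10000 in the lowest cell, 1.53 in the median cell and 23.05 in the highest. The share was 17.9% in macrophages and 1.79% in tumor cells, which should lack the gene. The source of the UMIs in tumor cells, such as free RNA in droplets, was not tested. After each cell was thinned to 1000 UMIs, which left out 2 members, 251 macrophages and 72 tumor cells, the shares were 22.2%, 4.82% and 0.206%. Summed over cells, Ccr2 was at 250 CPM in the members and 54.2 CPM in macrophages, a ratio of 4.61 (95% interval 3.74 to 5.64), and without the 6 cells the ratio was 5.51. The 97 cells with Ly6c2 and more C1q had 212 CPM, closer to the members than to the macrophages.

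Genes were compared between members and macrophages by summed UMIs, in CPM, where the mean of both groups was at least 20 CPM. Of 5149 such genes, 3.81% were at least 2-fold higher in the members and 4.91% were at most 0.5 times the macrophage level, and the median log2 ratio of all tested genes was 0.02. Without the 6 cells, 5159 genes were compared, 4.71% were at least 2-fold higher, 5.62% were at most 0.5 times the macrophage level, and the median log2 ratio was 0.03. Against the 1289 macrophages with the members' own limits, 4.46% of 5066 genes were at least 2-fold higher and 4.78% at most 0.5 times. These shares are the background for every list below.

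Of 19 measured genes on the classical monocyte list, 9 were at least 2-fold higher in the members and none at or below 0.5 times the macrophage level, with and without the 6 cells. Both counts are well above the shares of 3.81% and 4.71% over all genes. The list and the rule describe the same kind of cell, so this count is a check of the label and not independent of how the members were chosen. The median log2 ratio of the list was 0.75, and 0.89 without the 6 cells. Against the 1289 macrophages with the members' own limits, 11 of 19 genes were at least 2-fold higher and the median was 1.41, the list's largest move under any alternative.

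Hp, which encodes the hemoglobin-binding protein haptoglobin, was at 106 CPM in members and 3.22 CPM in macrophages, a ratio of 33.0 (21.9 to 49.5). It was concentrated in few cells, 19 of 74, and 12 of its 45 UMIs came from 1 cell. Ifitm6, a myeloid member of the interferon-induced transmembrane family, was at 116 against 5.73 CPM, a ratio of 20.2 (14.1 to 28.6), in 20 members. Ms4a4c was more general, with UMIs in 66 members and 819 against 276 CPM, a ratio of 2.96 (2.65 to 3.31). In single cells its level ran from 0 over a median of 9.65 to 62.6 per 10000 in the 68 members, against a median of 1.21 in macrophages.

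F10, the gene of coagulation factor X, was at 68.4 against 10.8 CPM, a ratio of 6.34 (4.14 to 9.39). Thbs1, which encodes thrombospondin 1, was at 257 against 93.8 CPM, a ratio of 2.74 (2.24 to 3.33), and had no UMI in the 6 cells that stand apart. Gsr, glutathione reductase, was 4.06 times as high (2.88 to 5.57), but 12 of its 42 UMIs came from 1 cell. S100a4 was 3.28 times as high (3.06 to 3.5) at 2182 CPM, and it was higher still in tumor cells, at 3057 CPM. Against the 1289 macrophages with the members' own limits the ratio of S100a4 was 6.67 (6.20 to 7.16). Clec4e, a receptor for microbial glycolipids, had a ratio of 2.45 with a wide interval of 1.48 to 3.84 from 20 UMIs.

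The other monocyte genes did not separate members from all macrophages by 2-fold. Vcan and S100a6, at ratios of 1.39 (0.921 to 2.03) and 1.68 (1.59 to 1.77), passed it against the 1289 macrophages with the members' own limits, at 3.11 (2.03 to 4.60) and 3.44 (3.25 to 3.64). Lyz2 was at 6850.25 CPM in members and 6582 CPM in macrophages over all members, and at 9122 CPM without the 6 cells. Cd14, Fn1, Itgam, F13a1 and Csf1r had ratios between 0.744 and 1.04.

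Genes of patrolling (non-classical) monocytes were mixed. Cx3cr1, the fractalkine receptor that marks them and many tissue macrophages, was at 87.3 CPM in members and 300.3 CPM in macrophages, a ratio of 0.291 (0.204 to 0.401). Nr4a1, the transcription factor they depend on, was at 40.1 against 24.2 CPM from 17 UMIs, with an interval of the ratio from 0.958 to 2.69 that includes 1, and at a ratio of 2.08 (1.18 to 3.42) without the 6 cells. Pglyrp1 had 24 UMIs in 5 members, 18 of them in the 2 cells with natural killer genes. Ace, which encodes angiotensin-converting enzyme, had 13 UMIs in 6 members, 30.7 against 0.927 CPM, and no UMI in the 6 cells that stand apart.

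**Figure D3:**
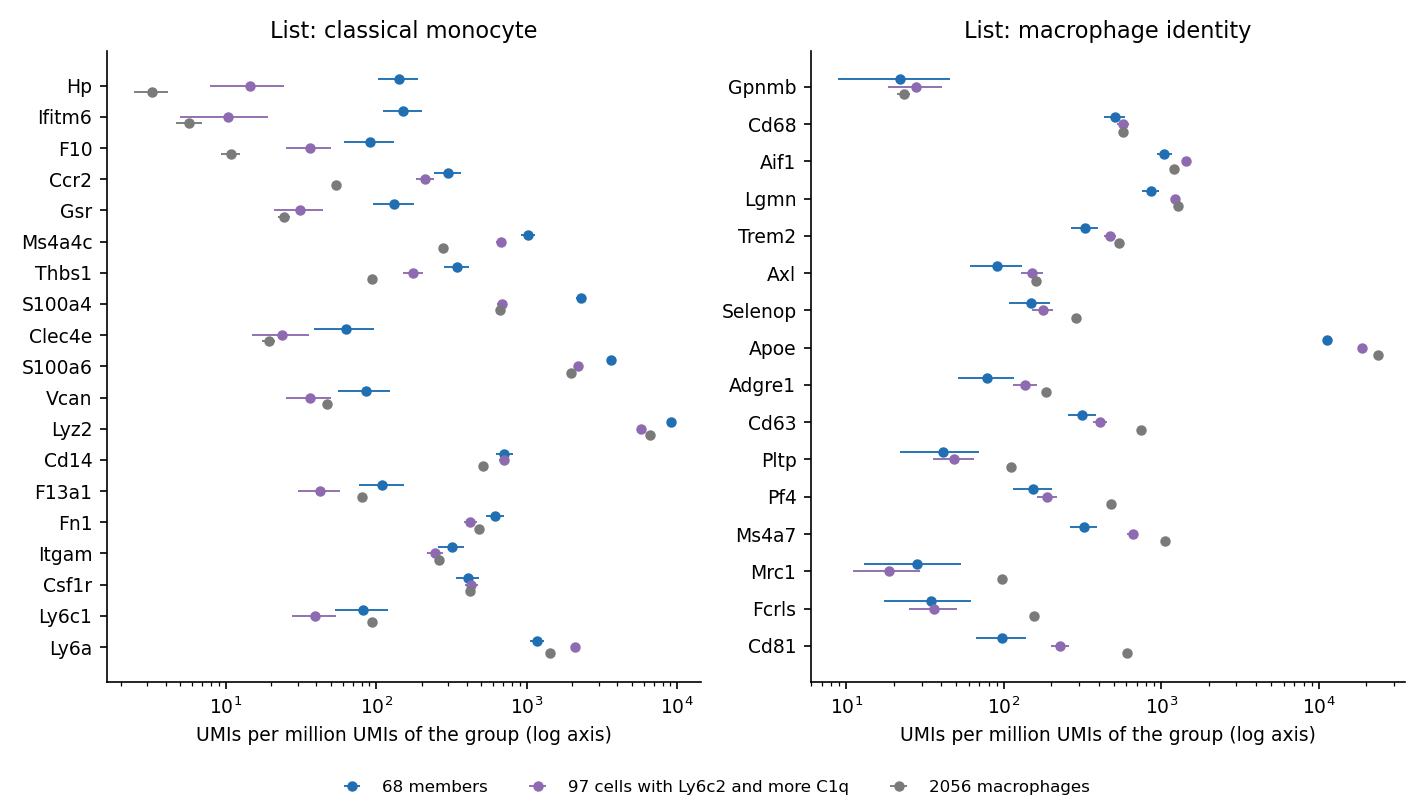
The points give CPM on a log axis for each measured gene of the classical monocyte list (left) and the macrophage identity list (right) in the 68 members, the 97 cells with Ly6c2 and more C1q UMIs and the 2056 macrophages, and bars are exact Poisson 95% intervals of the summed counts. On the left, Hp, Ifitm6, F10 and Ccr2 are furthest apart between members and macrophages, and on the right Cd81, Fcrls, Mrc1 and Ms4a7.

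Genes of macrophage identity were lower in the members throughout. None of the 15 measured genes had a ratio above 1, and 12 were at or below 0.5 times the macrophage level, 9 of 16 without the 6 cells and 14 of 17 against the 1289 macrophages with the members' own limits. The rule chose macrophages for C1q and limited it in members, so these counts are not independent of how the cells were chosen. Apoe, the lipoprotein that carries cholesterol out of macrophages, was at 8516 CPM in members against 23619 CPM in macrophages, a ratio of 0.361 (0.349 to 0.373). In the 68 members it ranged from 0 to 958 UMIs per 10000 with a median of 41.6, against a median of 146 in macrophages, and 1 member held 33.5% of all Apoe UMIs of the 74.

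Cd81, a tetraspanin, was at 80.2 against 607 CPM, a ratio of 0.132 (0.0914 to 0.185). Ms4a7 was at 243 against 1057 CPM, a ratio of 0.230 (0.188 to 0.279), with UMIs in 23 members. Mrc1, the mannose receptor, had 9 UMIs in 7 members, and Adgre1, the F4/80 antigen, was at 66.0 against 185 CPM. Trem2, a lipid receptor of tumor macrophages, had a ratio of 0.458 (0.374 to 0.555) over all members and 0.604 (0.493 to 0.733) without the 6 cells. The genes of resident macrophages Cd163 and Lyve1 were at 0 in the members, and Folr2 and Mertk had 1 UMI each.

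Transcription factors of the myeloid line differed less. Of 18 measured, 3 were at least 2-fold higher and 1 at or below 0.5 times the macrophage level, none without the 6 cells. Cebpb, which drives the emergency formation of granulocytes, was at 2279 against 1056 CPM, a ratio of 2.16 (2.02 to 2.30), with UMIs in 72 members. Maf, a factor of mature macrophages, was at 70.8 against 188 CPM, a ratio of 0.377 (0.254 to 0.539), and 0.502 (0.338 to 0.718) without the 6 cells. Klf4, required for Ly6C-high monocytes, had a ratio of 2.29, but 41 of its 83 UMIs came from 1 cell. Irf8 moved with the 6 cells: its ratio was 1.16 (0.961 to 1.39) over all members and 0.593 (0.434 to 0.792) without them.

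Against all macrophages, the type I interferon list had the highest median ratio of the lists with at least 5 measured genes once the 6 cells were left out. Of 29 measured genes, 28 had a ratio above 1, 8 were at least 2-fold higher over all members, and 14 were without the 6 cells, against backgrounds of 3.81% and 4.71%. The median log2 ratio of the list was 0.76, and 0.96 without the 6 cells. All members were also set against the 1289 macrophages with the members' own limits. There 8 of the 29 genes were at least 2-fold higher, against a background of 4.46%. The median was 0.74, below the 1.41 of the classical monocyte list. Mx1 was not found as a single symbol in the matrix and is not counted.

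Slfn4, a Schlafen gene of monocytes, was at 104 against 16.0 CPM, a ratio of 6.50 (4.62 to 8.94), and Slfn1 was at 288 against 71.3 CPM, a ratio of 4.04 (3.32 to 4.86). Ifitm3, an antiviral membrane protein, was at 4685 against 2293 CPM, a ratio of 2.04 (1.95 to 2.14), and it had UMIs in all 74 members. In the 68 members Ifitm3 ranged from 12.2 over a median of 55.7 to 146 UMIs per 10000, against medians of 18.5 in macrophages and 17.3 in tumor cells. Ifi209, a member of the HIN-200 family of DNA sensors, was at 264 against 86.4 CPM, a ratio of 3.06 (2.5 to 3.70), in 51 members.

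Isg15, a ubiquitin-like modifier, was at 109 against 58.6 CPM, a ratio of 1.85 (1.35 to 2.49), and at a ratio of 2.20 without the 6 cells. Irf7, the factor that amplifies interferon production, had a ratio of 1.61 (1.39 to 1.85). Over all members the gene below 1 was Rsad2, at 89.6 against 108 CPM with an interval of 0.583 to 1.14. Without the 6 cells the ratio of Rsad2 was 1.04 and Ifi44 was the gene below 1, at 0.946 (0.549 to 1.52). Ifi205 is uncertain, since 34 of its 67 UMIs came from 4 of the 6 cells that stand apart and its HIN-200 relatives share much sequence.

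Factors activated by interferon read a short repeated sequence in promoters, so a few stretches that hold it are printed here. In the RefSeq windows from 250 bases before to 50 after each start (build GRCm38.p6), 25 of the 30 listed genes were matched, and 13 held GAAA, any 2 bases and GAAA again, the core of the interferon-stimulated response element, on either strand. Over all genes with such a window 1070 of 26742 held it, 4.0%, and none of the 12 matched among the 20 genes of the classical monocyte list did. Each line gives 30 bases of the gene's strand from 5′ to 3′ upstream of the start, with matches in capitals, where overlapping matches run together.

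Isg15: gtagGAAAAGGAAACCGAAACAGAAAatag
Oas3: aggaGAAAACGAAAgtgaagggaggtgact
Ifi211: caggGAAATTGAAAgctatgaacgaaactg
Ifi213: tgagGAAATCGAAAgctatgaaccttgtcc

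The Isg15 stretch lies at chr4:156200871-156200900, that of Oas3 at chr5:120777709-120777738, that of Ifi211 at chr1:173913058-173913087 and that of Ifi213 at chr1:173599320-173599349, all on the minus strand. Isg15 holds 3 overlapping matches and the others 1 each. The match did not sort the list by level: it was found in 6 of the 13 matched genes that were at least 2-fold higher without the 6 cells and in 7 of the 12 others. Slfn4, Slfn1, Isg20 and Ifi209 had no match in their windows, which says only that these letters are not there.

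The interferon gamma list differed little, with none of 20 genes at least 2-fold higher and 2 at or below 0.5 times the macrophage level, 1 without the 6 cells. One of these was Cxcl9, the T cell attracting chemokine, at 293 against 929 CPM, a ratio of 0.315 (0.262 to 0.376). The other was Iigp1, with a ratio of 0.489 (0.358 to 0.654) over all members and 0.595 (0.428 to 0.806) without the 6 cells.

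Chemokines were lower in the members as a group. Of 15 measured, none was at least 2-fold higher, and 9 were at or below 0.5 times the macrophage level, 8 without the 6 cells. Ccl8 had 12 UMIs in 11 members and was at 28.3 against 573 CPM, a ratio of 0.0494 (0.0255 to 0.0863). Ccl7 and Ccl12, which like Ccl2 attract cells with CCR2, had ratios of 0.102 (0.0584 to 0.166) and 0.105 (0.0705 to 0.151). Ccl2 itself was at 241 against 516 CPM in macrophages, a ratio of 0.466 (0.380 to 0.567), or 0.566 (0.457 to 0.694) without the 6 cells, and at 1549 CPM in tumor cells. Cxcl10 did not follow, at 580 against 559 CPM with an interval of 0.910 to 1.18, and Ccl6 had a ratio of 1.29 (1.06 to 1.56).

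Of 8 measured chemokine receptors, only Ccr2 was at least 2-fold higher. Ccr1 was at 196 against 167 CPM, and its interval of 0.930 to 1.46 includes 1.

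Of 10 measured genes for inflammatory cytokines and sensors, none was at least 2-fold higher and 1 was at or below 0.5 times, and without the 6 cells 3 of 11 were higher. Il1b, the gene of interleukin 1 beta, was at 467 against 277 CPM, a ratio of 1.68 (1.45 to 1.94), and 2.03 (1.74 to 2.35) without the 6 cells. It was uneven, with UMIs in 39 members and 41 of its 198 UMIs in 1 cell. Arg1, the arginase of tumor macrophages, was at 413 against 827 CPM, a ratio of 0.499 (0.428 to 0.579), or 0.661 (0.566 to 0.768) without the 6 cells, and came from 22 members. Tgfb1 was at 250 against 166 CPM, a ratio of 1.51 (1.23 to 1.83), and Tgfbr1, which encodes the type I receptor for it, was at 35.4 against 88.6 CPM.

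MHC class II was lower in the members. Cd74 was at 6383 against 11760.3 CPM, a ratio of 0.543 (0.522 to 0.564), which became 0.472 (0.455 to 0.491) against the 1289 macrophages with the members' own limits, and H2-Aa, H2-Ab1 and H2-Eb1 had ratios from 0.620 to 0.770. Without the 6 cells none of 7 measured genes passed 2-fold in either direction. H2-DMb2 passed it over all members with a ratio of 3.78, but 16 of its 20 UMIs came from the 4 cells that stand apart without natural killer genes. The 10 MHC class I genes had ratios between 0.804 and 1.16.

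Lysosome genes were below the macrophage level in all 19 measured cases, 5 of them at or below 0.5 times, and in 18 of 20 without the 6 cells, 2 of them at or below 0.5 times. Ctsd, the protease cathepsin D, was at 535 against 1209 CPM, a ratio of 0.443 (0.387 to 0.505). Ctsb, cathepsin B, had a ratio of 0.445 (0.404 to 0.489), and 0.568 without the 6 cells. In the Fc receptor list, Fcgr1 and Fcgr3 were at ratios of 1.12 and 0.815, and only Mrc1 and Stab1 were at or below 0.5 times.

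Adhesion and migration genes were on the higher side. Of 17 measured, 4 were at least 2-fold higher, and 6 of 16 were without the 6 cells. Itgb7 and Itga4, which pair in an integrin for vessel walls, were at 127 against 38.6 CPM, a ratio of 3.30 (2.45 to 4.35), and at 89.6 against 44.0 CPM, a ratio of 2.04 (1.43 to 2.82), or 1.92 (1.35 to 2.67) against the macrophages with the members' own limits. Emilin2, an extracellular matrix protein, had a ratio of 3.24 (2.49 to 4.15), and Tmsb10, an actin-binding peptide, a ratio of 3.1 (2.94 to 3.27). In the S100 list, S100a11 had a ratio of 4.41 (4.09 to 4.75), at 1849 CPM against 419 in macrophages and 631 in tumor cells, and of 4.89 (4.53 to 5.28) against the macrophages with the members' own limits, where S100a4 was above it.

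The cell cycle list depended on the cells that stand apart. Over all members, 6 of 19 measured genes were at or below 0.5 times the macrophage level, and 14 of 18 were without the 6 cells. Top2a, which untangles DNA, was at 99.1 CPM over all members, 31.4 CPM without the 6 cells and 150 CPM in macrophages, that is, a ratio of 0.659 (0.474 to 0.893) or of 0.209 (0.100 to 0.385). Mki67, the proliferation marker Ki-67, had 18 UMIs, of which 13 came from the 4 cells that stand apart without natural killer genes.

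**Figure D4:**
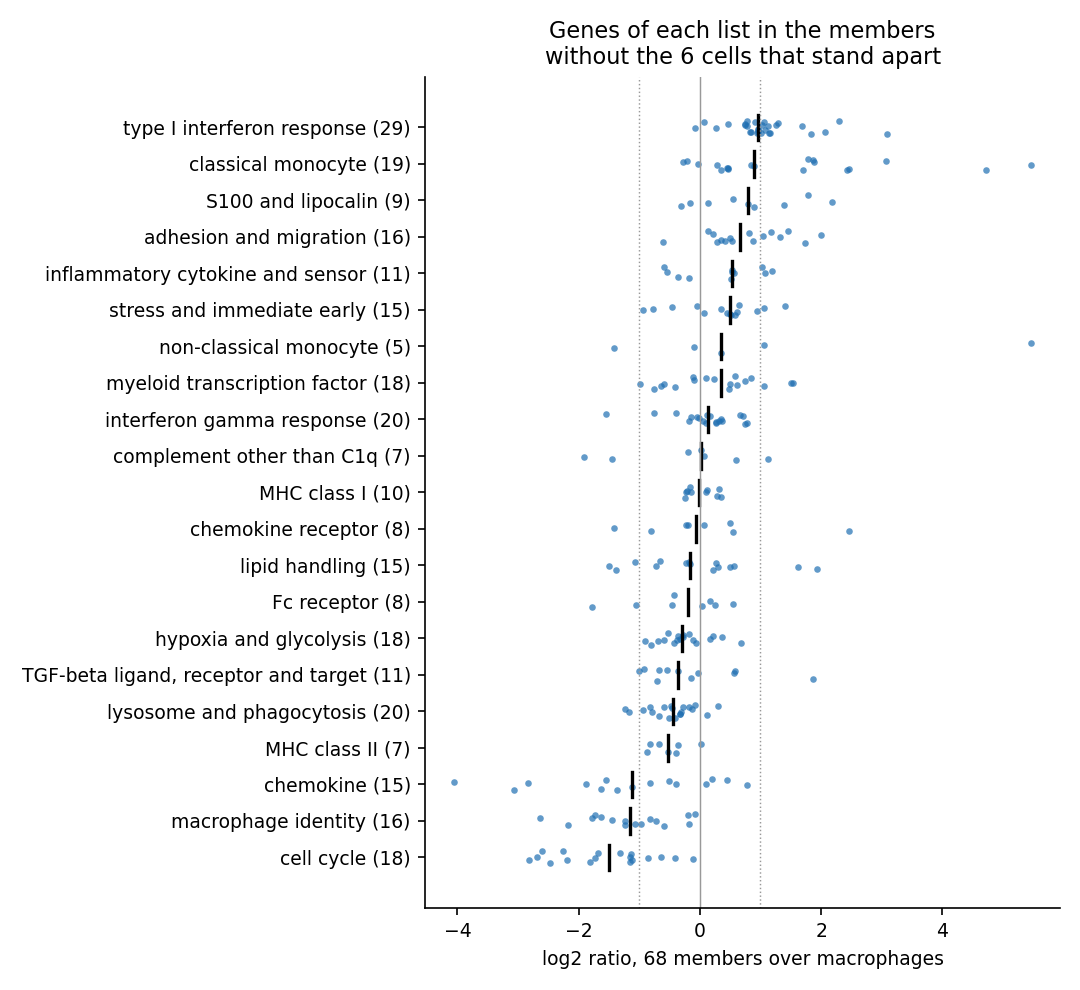
Each point is the log2 ratio of 1 measured gene between the 68 members and macrophages, in lists with at least 5 measured genes (number in parentheses), with black bars for the median of each list and dotted lines at 2-fold. The type I interferon and classical monocyte lists have the highest medians, 0.96 and 0.89, and the cell cycle list has the lowest, -1.50.

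Over all genes compared, list genes included, most of the highest ratios belonged to the 2 cells with natural killer genes. Of the 15 genes with the highest ratios, Gzmf, Gzmg, Gzme, Gzmd, Gzmc, Gzmb, Ctsg, Klrd1, Nkg7, Cst7 and Ctla2a had most of their UMIs there. Gzmf had 2011 UMIs, 2010 of them in 1 cell, and 0 in the 68. Hp, Ifitm6, Ly6i and Mcemp1 were the 4 that did not depend on those cells.

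Without the 6 cells, these 4 led the order. Ly6i, another gene of the Ly6 cluster, was at 387 against 14.7 CPM, a ratio of 26.3 (21.0 to 32.6), with UMIs in 36 of the 68. Mcemp1, a membrane protein of mast cells and monocytes, was at 141 against 8.07 CPM, a ratio of 17.5 (12.3 to 24.6). Napsa, an aspartic protease, was at 349 against 54.4 CPM, a ratio of 6.41 (5.22 to 7.81), and Crip1 at 1386 against 269 CPM, a ratio of 5.16 (4.67 to 5.68). At the low end, Mmp12, macrophage elastase, had 3 UMIs in the 74 members, 7.08 against 187 CPM, a ratio of 0.0379 (0.00782 to 0.111). Vcam1, an adhesion molecule, and Hmox1, the heme oxygenase, had ratios of 0.132 (0.0483 to 0.287) and 0.202 (0.132 to 0.296) over all members.

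Among the 68 members, Chil3 and MHC class II ran in opposite directions. Chil3 is a gene of the rule, and cells without it met the C1q condition through Ly6c2 and Plac8 alone. The part of the rule in this pattern was not tested. Chil3 had 0 UMIs in 29 cells, 1 to 5 in 23 and at least 6 in 16, classes set after the data were seen, with median depths of 4292, 3063 and 4642 UMIs. The 4 MHC class II genes Cd74, H2-Aa, H2-Ab1 and H2-Eb1 together ranged from 0 to 756 UMIs per 10000 with a median of 65.9, against a median of 164 in macrophages. Their median was 166 per 10000 in cells without Chil3, 22.9 in the middle class and 10.6 in cells with at least 6 Chil3 UMIs. Above the overall median were 22 of 29, 8 of 23 and 4 of 16 cells. The classes overlapped, with 5.42 to 756, 0 to 680.0 and 0 to 334 per 10000. Spearman's rho between Chil3 and Cd74 levels was -0.51 over the 68 cells, a description of cells that share 1 library and differ in depth.

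Summed over the cells of a class, Cd74 was at 9150, 5147 and 3226 CPM from no Chil3 to at least 6 UMIs, and H2-Ab1 at 6033, 2948 and 1602 CPM. Cxcl9 stood at 474, 295 and 87.8 CPM in the same order, and Ly6i at 556, 393 and 110 CPM. All 4 were lowest where Chil3 was highest, but 1 cell gave 19 of the 24 Cxcl9 UMIs of the middle class. Lyz2 was at 7873, 6265 and 13672 CPM, Ifitm6 at 82.4, 86.0 and 318 CPM, and Gsr at 75.5, 49.1 and 296 CPM, so these were highest in the class with most Chil3. Gsr had 27 UMIs in 7 of the 16 cells of that class, and 1 cell gave a large part of them. Ccr2 was at 254, 295 and 373 CPM, with intervals that overlap (179 to 350 in the first class). The macrophage identity list had medians of 70.9, 62.2 and 75.9 UMIs per 10000. Apoe was at 14538, 9877 and 7165 CPM, but 1 cell gave 1209 of the 2118 Apoe UMIs of the first class, and the rho of Chil3 and Apoe over single cells was -0.04.

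**Figure D5:**
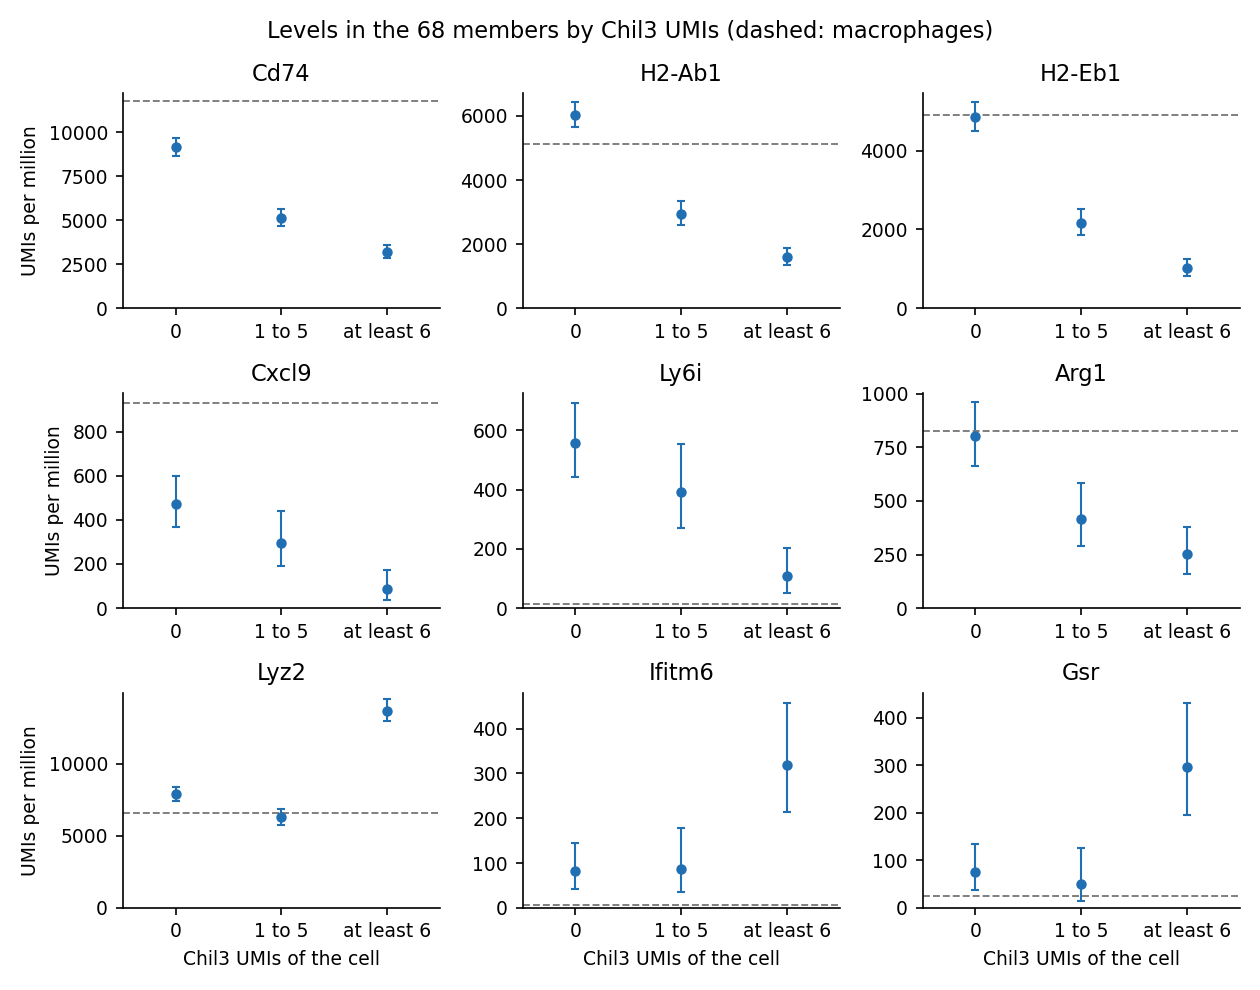
Each panel gives the CPM of 1 gene in the 68 members with 0, 1 to 5 or at least 6 Chil3 UMIs (29, 23 and 16 cells), with exact Poisson 95% intervals, axes from 0 and a dashed line for macrophages. Cd74, H2-Ab1, H2-Eb1, Cxcl9, Ly6i and Arg1 are lowest in the cells with at least 6 Chil3 UMIs, and Lyz2, Ifitm6 and Gsr are highest there.

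C1q, which the rule limited but did not exclude, was at 0 UMIs in 24 members and reached at least 10 per 10000 in 12. Among the 68, Plac8 was at 5567 CPM in the 24 cells without a C1q UMI and 3716 CPM in the 44 others, and Apoe was at 7720.06 and 12563 CPM, with 1209 of the 2901 Apoe UMIs of the latter from 1 cell. Plac8 and C1q are on opposite sides of a condition of the rule, so the difference in Plac8 is a description and not a finding. The cells without C1q UMIs were somewhat shallower, with a median of 3480.5 against 4300.5 UMIs. The parts of depth and of the rule in this split were not tested.

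The 97 cells with Ly6c2 and as many or more C1q UMIs lay between members and macrophages for some genes and not for others. Ms4a4c was at 679 CPM there, against 819 in members and 276 in macrophages, and Thbs1 at 175, against 257 and 93.8. Ms4a7 was at 658 CPM, against 243 in members and 1057 in macrophages, and Cd81 at 227, against 80.2 and 607. S100a4, at 688 CPM, was at the level of all macrophages, 666. The 97 cells kept to the members' limits on tumor, Cd3, Tyrobp and Fcer1g genes, however. In the 1289 macrophages with those limits S100a4 was at 327 CPM, so the 97 cells lay between these and the members. Hp at 14.4 CPM was much nearer to the 3.22 of all macrophages than to the 106 of members. Cd74, at 11538.5 CPM, was near the level of all macrophages, 11760.3, and Arg1, at 1080.45 CPM, was above both groups. The ratio of Cd74 given above was lower against the macrophages with the members' limits, so their Cd74 level was higher than 11760.3 CPM. A score of simulated doublets, by which 172 of the 4640 cells were called, called 4 of these 97 and 1 of the 74 members. Droplets that hold a monocyte and a macrophage and single cells with both sets of genes cannot be told apart here.

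Among the 16 cells with 1 Ly6c2 UMI that met the other conditions, Plac8 was at 3073 CPM, close to the 3439 of members. Their Ccr2 was at 108 CPM from 9 UMIs and their Lyz2 at 3483 CPM, both below the members, and Chil3 had 4 UMIs. Plac8 is a gene of the rule, and these cells needed it or Chil3 to exceed any C1q UMI. Their Plac8 level is therefore a description and not a finding.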

How the data were processed

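The authors made the gene-by-cell table of UMI counts with Cell Ranger (5.0.1 in the file header), on the mouse build GRCm38 (mm10 in the submitters' processing notes), and deposited it for called cells with no normalization. Of 5307 called cells, those with more than 20% mitochondrial UMIs or fewer than 200 genes were left out, and the 4640 others held 103078885 UMIs over 32285 genes. UMI counts were summed over the cells of a group and scaled to CPM, with exact Poisson 95% intervals, and ratios of 2 groups have exact conditional intervals. All intervals cover counting error only, and 1 library allows no test. A gene was compared where the mean of both groups was at least 20 CPM, without the 13 genes of the rule, and a fold of 2 was the limit for a difference.

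The members and the gene lists were chosen with earlier results of these data known. Named genes came from 28 lists and from the 15 highest and 15 lowest ratios with a mean of at least 50 CPM and an interval past 2-fold. Predicted and mitochondrial genes were left out of these. Single values of a few list genes are not reported here. Xist, the classes by Chil3 and the 6 cells that stand apart were chosen after their values were seen. Doublets were kept, and in an alternative the cells with most simulated doublets among their 30 neighbours were removed, at 0.8% per 1000 cells. Shares of cells with a UMI were also given after thinning to 1000 UMIs. Gene positions came from GENCODE and promoters from RefSeq, both on GRCm38. Alternatives changed the cell filters, the Ly6c2 minimum, the macrophage rule, the averaging, the depth and the minimum level, and members of other kinds were left out in alternatives chosen after seeing the data. The comparison was tested on simulated Poisson counts with known folds. These counts held no variation between cells, so that test does not cover such variation. Scripts ran in Python 3.11.15 with pandas 2.3.3, numpy 2.4.6 and scipy 1.17.1, neighbours were found with scikit-learn 1.9.0, and plots were drawn with matplotlib 3.10.9.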

Additional observations from a re-analysis of the deposited data

How the results depend on the processing

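The 74 members became 57 with at least 4 Ly6c2 UMIs and moved by less than their interval under the other cell filters. The 196 genes at least 2-fold higher and 253 at most 0.5 times the macrophage level became 320 and 397 with the mean over cells, 693 and 648 with cells thinned to 1000 UMIs, 78 and 99 with a mean of at least 50 CPM, and 561 and 959 with a mean of at least 5 CPM. The last 2 settings compare fewer or more genes by construction, and thinning leaves fewer counts per gene. For the mean over cells the cause was not tested. Of 108 named genes past 2-fold, 85 to 106 stayed past it, with the fewest after thinning. The log2 ratio of Hbb-bs turned from -2.46 to 0.52 with at least 500 genes per cell and to 0.94 against macrophages with the members' limits. Against those macrophages Col3a1 was at 0.24 and Col5a1 at 0.00355, and after thinning Col5a1 was at 0.12 and Ccna2 at 0.91. Without the 6 cells that stand apart Cst7 was at -0.85 and Ctla2a at -1.06, and without the 2 cells with natural killer genes they were at -0.076 and -1.29, where the loss of those cells' UMIs is the cause by construction. For the other reversals the cause was not tested. Depth limited low genes, since 423926 UMIs in 74 cells put a gene with 3 UMIs at 7.08 CPM. No paired analysis was possible because there was 1 library without replicates.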

Other observations

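Of 15 measured genes for lipid handling, 2 were at least 2-fold higher in the members and 4 at or below 0.5 times the macrophage level, against 3.81% and 4.91% of all genes, and without the 6 cells the counts were 2 and 3. Apoc2, an apolipoprotein, was at 653 against 227 CPM, a ratio of 2.87 (2.53 to 3.24), and at a ratio of 3.83 without the 6 cells, in which it had no UMI. Apoc2 was thus higher in the members where Apoe, of the same gene cluster, was lower. Abca1, which exports cholesterol, had 15 UMIs in 9 members, 35.4 against 123 CPM, a ratio of 0.289 (0.161 to 0.477).

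Of 15 genes for stress and the immediate early response, which cell isolation can raise in any cell, 11 had a ratio above 1. Over all members only Ier2 was at least 2-fold higher, at 222 against 101 CPM. Fosb was lower, at 109 against 259 CPM, a ratio of 0.420 (0.307 to 0.561), or 0.523 (0.378 to 0.705) without the 6 cells. Without the 6 cells 2 of the 15 were at least 2-fold higher, against 4.71% of all genes compared, and the median log2 ratio moved from 0.22 to 0.50. Of 18 genes for hypoxia and glycolysis, none was at least 2-fold higher and 1, Arg1, was at or below 0.5 times over all members, none without the 6 cells. Of 7 complement genes other than C1q, none was at least 2-fold higher over all members and 2 were at or below 0.5 times, C4b at a ratio of 0.20 (0.0733 to 0.437) from 6 UMIs and Itgax at 0.382 (0.226 to 0.606). C3, the central complement component, had a ratio of 1.66 (1.32 to 2.07) over all members and 2.19 (1.74 to 2.73) without the 6 cells.

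Atp6v0a1, the gene targeted in the knockdown tumors of the study, had 9 UMIs in 7 members, 21.2 CPM against 14.2 CPM in macrophages and 7.75 CPM in tumor cells, with an interval of the ratio from 0.675 to 2.88 that includes 1. Xist, the RNA that silences an X chromosome in female cells, was at 248 CPM in members, 713 CPM in macrophages and 7.35 CPM in tumor cells. It had UMIs in 33 of 74 members, and the ratio was 0.347 (0.284 to 0.421), and 0.300 (0.233 to 0.380) without the 6 cells.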
